A study of Oryza sativa with 24 samples.

Results

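The segment comprised the 168 loci of rice chromosome 12 with identifiers from LOC_Os12g30000 to LOC_Os12g34999, out of 26480 loci in the count table and 1444 on that chromosome. It was chosen because this window of 5000 identifier numbers held many loci that differed at least 4-fold between the tap mutant and the wild type (WT) at both lengths at high temperature. The high-temperature differences between tap and WT given below are therefore a description without a test, and nothing is supported by them. RNA came from inflorescences of rice (Oryza sativa, line 9522) that were 2 mm or 3 mm long, taken from tap or WT plants kept at high or at low temperature. The series title expands TAP as THERMO-SENSITIVE BARREN PANICLE. The 8 groups were tap and WT at 2 mm and at 3 mm at high temperature, and tap and WT at 2 mm and at 3 mm at low temperature, with 3 libraries each. The sources used here give neither the degrees of each temperature nor the mutated locus or the origin of the mutant. They also do not say whether replicates were separate plants, so a p-value measures only the spread among these samples.

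A young rice inflorescence is made of branch and spikelet meristems, which grow into the panicle that carries the grain. Rice locus identifiers are numbered along each chromosome, so loci with nearby numbers lie near each other, and loci that are close together on a chromosome are usually inherited together. Each library is RNA from whole inflorescences, in which fewer cells of a type and less RNA per cell cannot be told apart. The identifiers are not paired with gene names in the files, and the RefSeq gene table of the species matched 0 of them, so loci are given by identifier only and no role is stated.

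Library totals were 19819257 to 21305381 counts. Of the 168 loci, 148 passed the filter on low counts and were tested, 19 fell below it, and 1 had no value at high temperature. Levels are counts scaled to library size by TMM, as counts per 1000000 (CPM), and differences are log2 ratios of tap to WT with their standard error, from 1 model over all 24 libraries. A locus was called at a Benjamini-Hochberg adjusted p under 0.05 over all 23658 tested loci. The high- and low-temperature columns carry names of different styles, and an effect of temperature cannot be told apart from any separate handling of the sets. All rows had at least 10 counts summed over the 12 low-temperature libraries, while 723 rows had 0 counts in all 12 high-temperature libraries, 3 of them in the segment, so the table cannot show rises and falls with temperature equally well. Strand use in counting is not stated, so overlapping, antisense and near-identical loci may share reads.

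Counted over the segment as a whole, more loci were called higher than lower in tap. At high temperature, 60 of the 148 tested loci were called higher and 16 lower in 2 mm tap inflorescences, where 37% of all loci were called, 18.4% higher and 18.6% lower. In 3 mm inflorescences at high temperature, 50 were called higher and 23 lower, where 37.1% of all loci were called, 19.3% higher and 17.8% lower. No low-temperature library was used to choose the window, but pooled low-temperature results in it were known beforehand, so these counts are a description too. At low temperature, 30 loci were called higher and 10 lower in tap at 2 mm, which is 27% of the segment against 15% of all loci, 7.67% higher and 7.3% lower. For 3 mm inflorescences at low temperature, 21 were called higher and 3 lower, which is 16.2% of the segment against 11.7% of all loci, 5.52% higher and 6.18% lower. This last count of 24 was 15 without WT replicate 1 of that length and temperature, and 40 (32 higher and 8 lower) when each temperature was fitted separately. The share of all loci called was not taken in these settings, so neither count can be set against the 11.7%. The median log2 difference over the 148 loci was 0.27, 0.14, 0.10 and 0.06 in these 4 comparisons, and within 0.01 of 0 over all tested loci. The low-temperature excess lay mostly in the 25 tested loci from LOC_Os12g33928 to LOC_Os12g34128, with 17 higher and 0 lower at 2 mm and 14 and 0 at 3 mm. The 96 tested loci before them had 10 and 9 at 2 mm and 6 and 3 at 3 mm. The 27 after them had 3 and 1, and 1 and 0. At high temperature the loci before had 30 and 11 at 2 mm and 22 and 17 at 3 mm. Those after had 7 and 5, and 5 and 6.

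Only part of the segment carried differences that held at both temperatures. A total of 18 loci were called in the same direction in all 4 comparisons of tap with WT, 17 higher and 1 lower in tap, which is 12.2% of the segment against 2.16% of all tested loci, 1.34% higher and 0.82% lower. The first of them by number was LOC_Os12g30040 and the last LOC_Os12g34980, but 13 of the 17 higher loci lay between LOC_Os12g33928 and LOC_Os12g34108. In the plot of log2 differences along the numbering, a dense run of large differences began at LOC_Os12g33928 and ended with LOC_Os12g34124. The limits of this stretch, LOC_Os12g33928 to LOC_Os12g34128, were set after its values were seen, so its counts are a description without a test. LOC_Os12g34128, the last locus of the stretch, was called in none of the 4 comparisons.

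**Figure D1:**
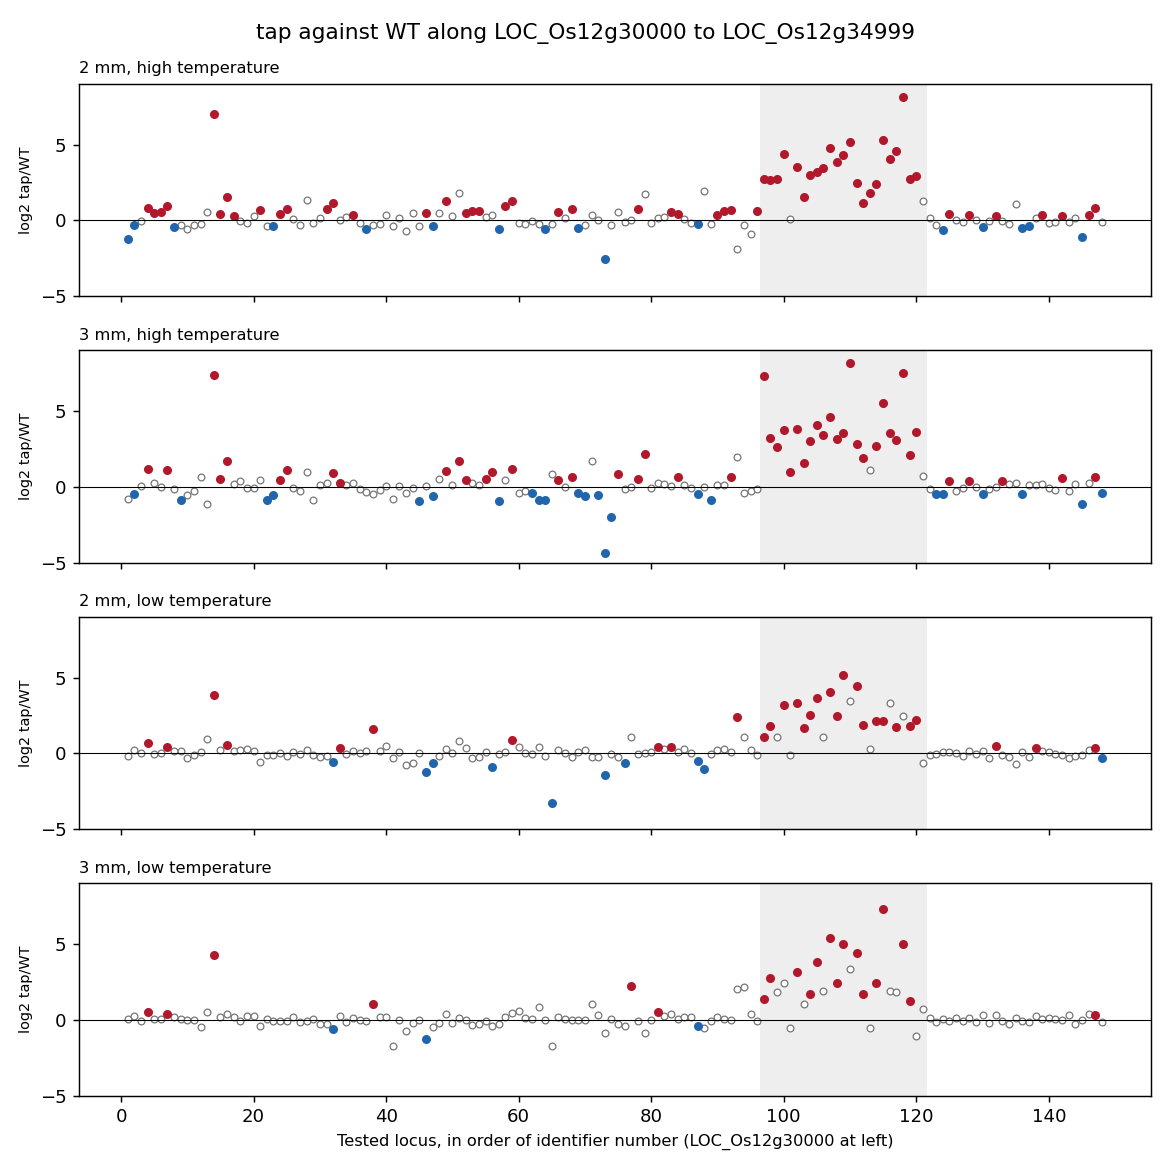
Log2 ratio of tap to WT (vertical axis) for the 148 tested loci in order of identifier number (horizontal axis), 1 panel per length and temperature; filled red points were called higher and filled blue points lower in tap, open points were not called, and the grey band marks LOC_Os12g33928 to LOC_Os12g34128. In the band, 23, 23, 17 and 14 of 25 loci were called higher and 0 were called lower from the top panel to the bottom one.

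The stretch held 26 of the 168 loci, and 25 of them were tested. Within it, 23 loci were called higher in tap at 2 mm and 23 at 3 mm at high temperature, and 17 at 2 mm and 14 at 3 mm at low temperature, with 0 called lower in any of the 4 comparisons by edgeR or DESeq2 and 0 lower at an unadjusted p under 0.05. The median log2 difference over the 25 loci was 3.01 and 3.23 at 2 mm and 3 mm at high temperature, and 2.12 and 1.89 at low temperature. Because 7 of the 25 loci had a group with 0 counts, the medians were also taken with such loci at a bound, for which the group at 0 was set to 3 counts in all. They were then 2.90, 3.23, 2.11 and 1.89. At least 4-fold higher levels in tap were fitted at both lengths for 20 loci at high and 11 at low temperature, or 19 and 8 with loci at their bound. Over all tested loci, 1.67% were fitted as at least 4-fold higher at both lengths at high temperature and 0.571% at low temperature.

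The loci on each side of the stretch differed by less than 1 log2 unit in all 4 comparisons. LOC_Os12g33415, the tested locus before it, had 2.89 ± 0.570 CPM in 2 mm tap against 1.87 ± 0.415 CPM in WT at high temperature, with 17.4 ± 0.380 CPM in tap against 18.7 ± 1.47 CPM in WT at low temperature (SD, n = 3 each). LOC_Os12g33415 was called higher in tap at 2 mm and high temperature alone, at 0.62 ± 0.20 log2 units, where the 3 tap libraries lay above the 3 WT libraries. That call was lost without tap replicate 3, without WT replicate 2 or in a separate fit of each temperature. Between LOC_Os12g33415 and LOC_Os12g33928, LOC_Os12g33730 alone was listed and fell below the filter. LOC_Os12g34220, the first locus after the stretch, had 15.2 ± 1.34 CPM in 2 mm tap against 13.6 ± 0.741 CPM in WT at high temperature, with 7.54 ± 0.865 CPM in tap against 8.17 ± 0.111 CPM in WT at low temperature. Of the 96 tested loci before the stretch, 4 were called in the same direction in all 4 comparisons, 3 higher and 1 lower, and 72 had differences of less than 1 log2 unit in every comparison. Of the 27 tested loci after it, 1 was called higher in all 4 comparisons and 25 had differences of less than 1 log2 unit throughout. The window of 5000 numbers before the segment held 2 loci called in all 4 comparisons among 66 tested, and the one after it held 11 among 207, of which 7 were lower in tap. The rest of chromosome 12 had 1145 tested loci. Of these, 3.32% were called in the same direction in all 4 comparisons, and 858 had differences of less than 1 log2 unit throughout.

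Most loci of the stretch kept 1 direction in all 4 comparisons, while LOC_Os12g33956, LOC_Os12g34056, LOC_Os12g34124 and LOC_Os12g34128 had mixed signs. From LOC_Os12g33958 to LOC_Os12g34054, 11 tested loci in a row had a positive log2 difference in all 4 comparisons, and 8 of them were called in all 4. Only 1 other row of 11 was found in the table, on chromosome 8, with 2 loci called in all 4 comparisons. A further 6 in a row ran from LOC_Os12g34094 to LOC_Os12g34108, after LOC_Os12g34056 broke the sequence. Of all tested loci, 15.9% were positive in all 4 comparisons, against 21 of the 25 loci of the stretch. The values of every tap library lay above those of every WT library of the same length and temperature, in all 4 comparisons, for 16 of the 25 loci, against 2.32% of all tested loci.

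Summed over the 25 loci, the stretch was higher in tap at each length and temperature. In 2 mm inflorescences at high temperature the sum was 556, 733 and 1216 CPM in the tap libraries, against 112, 189.6 and 185 CPM in the WT libraries. In 3 mm inflorescences it was 488, 739 and 496 CPM in tap, against 81.8, 142 and 126 CPM in WT. No tap library overlapped a WT library of the same length and temperature, although tap libraries of 1 group differed by more than 2-fold. At low temperature the 2 mm libraries had 70.7, 71.8 and 64.2 CPM in tap, against 22.1, 17.4 and 21.6 CPM in WT. The 3 mm libraries had 47.7, 63.0 and 52.7 CPM in tap, against 17.7, 20.1 and 22.9 CPM in WT. The ratios of the group means, tap over WT, were 5.14 and 4.93 at 2 mm and 3 mm at high temperature, and 3.39 and 2.69 at low temperature.

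**Figure D2:**
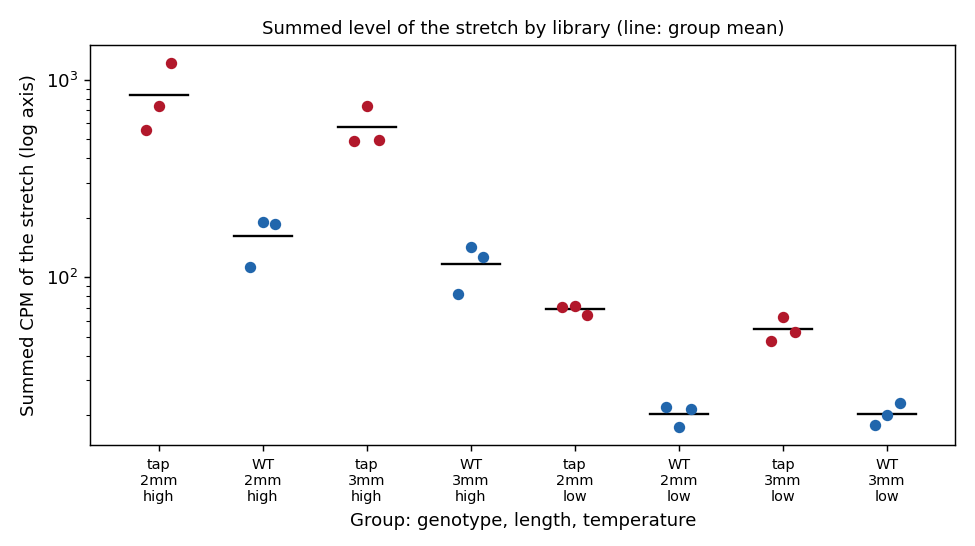
Summed CPM of the 25 tested loci of LOC_Os12g33928 to LOC_Os12g34128 in each library (log axis), by group; points are libraries (red tap, blue WT) and lines group means. The 3 tap libraries lie above the 3 WT libraries in all 4 pairs of groups, with means of 835 against 162 CPM at 2 mm and high temperature and 20.3 CPM in WT at both lengths at low temperature.

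In tap at high temperature, the loci of the stretch moved together between replicates. Among 2 mm tap libraries, replicate 3 had the highest value at 22 of the 25 loci and replicate 1 the lowest at 22. Among 3 mm tap libraries, replicate 2 was highest at 22 of the 25. The 123 other tested loci of the segment did not follow this order, since replicate 3 was highest at 51 of them at 2 mm and replicate 2 at 42 of them at 3 mm. In WT at high temperature no replicate was highest at more than 11 of the 25 loci at either length. Replicate 1 of WT was lowest at 13 of the 25 at 2 mm and at 10 at 3 mm, and had the lowest sum at both lengths. Some joint movement was thus also seen in WT. Replicates also scattered more within the stretch, with a median coefficient of variation of 38.1% in 2 mm tap and 38.9% in 2 mm WT at high temperature, against 12.7% and 12% for the other loci. Averaged over all libraries of both temperatures, levels were low, with a median of 4.67 CPM in the stretch against 14.3 CPM over all tested loci. Values at low counts carry more counting error. The 2 mm tap libraries at high temperature held 11542, 13904 and 22808 counts summed over the stretch. The cause of the scatter was not tested. These levels are not corrected for locus length.

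**Figure D3:**
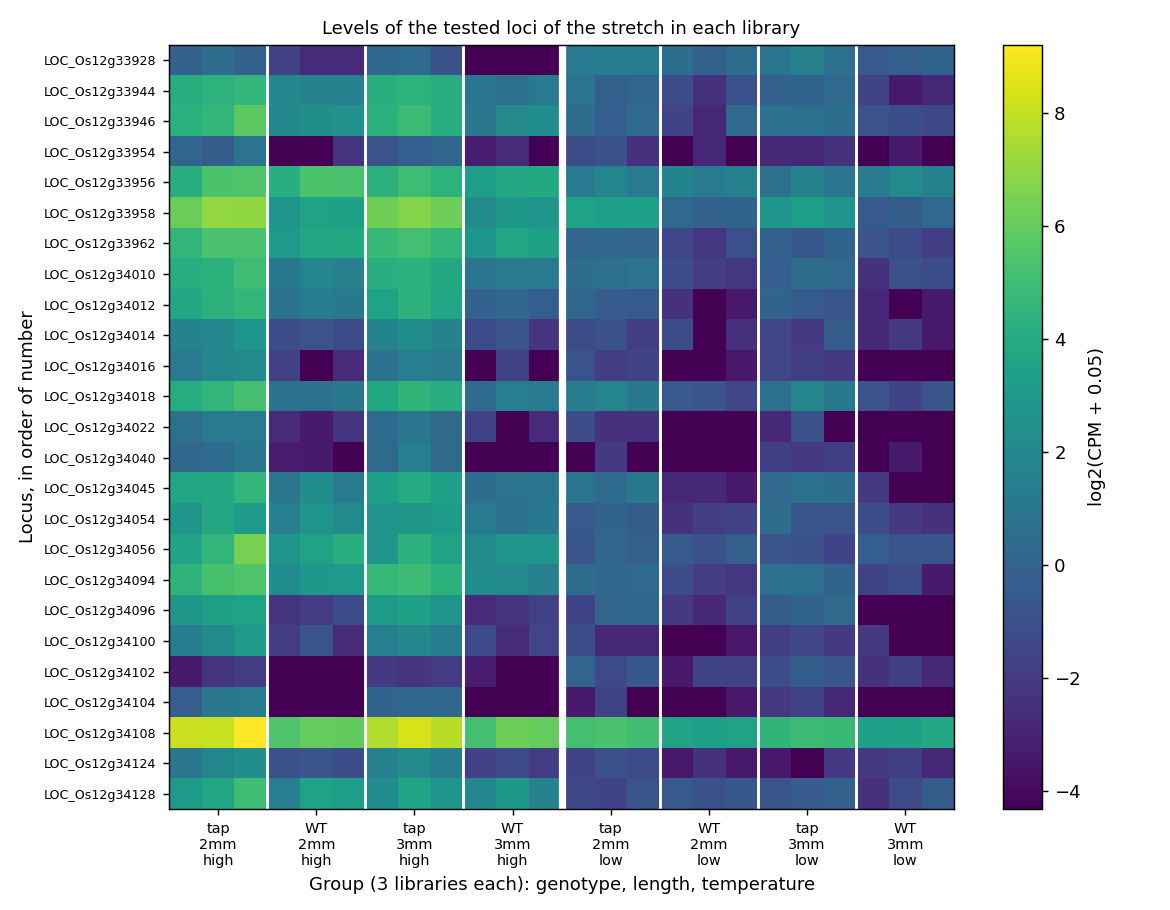
Level of each of the 25 tested loci of the stretch (rows, in order of number) in each of the 24 libraries (columns, by group), as log2(CPM + 0.05). Nearly every row is brighter in tap than in WT columns of the same length and temperature, and 23 of 25 rows are brighter in the 2 mm tap columns at high than at low temperature.

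Taken in order of number, the stretch opened with LOC_Os12g33928, which was at a low level. It had 0.915, 1.37 and 0.853 CPM in 2 mm tap libraries against 0.256, 0.101 and 0.103 CPM in WT at high temperature, with 2.38, 2.65 and 2.47 CPM in tap against 1.43, 0.868 and 1.33 CPM in WT at low temperature. At 3 mm and high temperature the 3 tap libraries held 55 counts and the 3 WT libraries 0, so the locus was at least 18.6-fold higher in tap. Its log2 difference was 1.05 ± 0.34 at 2 mm (adjusted p = 0.033) and 1.37 ± 0.36 at 3 mm (adjusted p = 0.011) at low temperature. LOC_Os12g33944, next in number, had 16.9, 21.1 and 25.0 CPM in 2 mm tap against 3.94, 3.22 and 2.98 CPM in WT at high temperature. At low temperature its levels were 1.82, 0.869 and 1.03 CPM in 2 mm tap against 0.415, 0.137 and 0.489 CPM in WT, a log2 difference of 1.81 ± 0.38 (adjusted p = 0.0011), and that at 3 mm was 2.77 ± 0.48 (adjusted p = 0.00013). The call of LOC_Os12g33928 was lost at 2 mm without any 1 tap library or without WT replicate 2 or 3 (adjusted p = 0.066 to 0.16), and at 3 mm without tap replicate 2 (adjusted p = 0.1) or WT replicate 1 (adjusted p = 0.062). For both loci the tap libraries lay above all WT libraries in each of the 4 comparisons.

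LOC_Os12g33946 and LOC_Os12g33954 followed. LOC_Os12g33946 was called at high temperature only, with log2 differences of 2.75 and 2.65 at 2 mm and 3 mm, and at low temperature its values of 1.07 ± 0.71 and 1.81 ± 0.72 missed the threshold. LOC_Os12g33954 held 68 counts over the 3 tap libraries and 3 over the 3 WT libraries at 2 mm and high temperature, 22.8 times the level, with a 95% interval from counting of 7.49 to 113. At 2 mm and low temperature it held 21 counts in tap and 2 in WT, a ratio of 10.7 (2.62 to 94.5). Without tap replicate 1 or 2 or WT replicate 1 or 3, the call of LOC_Os12g33954 at 2 mm and low temperature was lost (adjusted p = 0.071 to 0.1). Such intervals cover counting error only. A fold given as at least a value is a bound that sets the group at 0 to 3 counts and takes the counts of the other group as exact. It leaves out the counting error of that other group. Libraries of tap and WT overlapped at 2 mm at both temperatures for LOC_Os12g33956, LOC_Os12g34056 and LOC_Os12g34128, and for the latter pair also at 3 mm. At 2 mm, LOC_Os12g33956 had 18.3, 41.8 and 44.6 CPM in tap against 18.5, 42.0 and 40.1 CPM in WT at high temperature. It was at 2.73 ± 0.726 CPM in 2 mm tap against 2.91 ± 0.449 CPM in WT at low temperature, and was called at 3 mm and high temperature alone. There it had 20.7, 32.1 and 21.2 CPM in tap against 9.08, 14.2 and 14.9 CPM in WT, without overlap, and the call was lost on leaving out any 1 of the 6 libraries but tap replicate 1, without the filter and in a separate fit of each temperature.

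LOC_Os12g33958 differed by more than 3 log2 units in all 4 comparisons. Its levels were 71.3, 130.1 and 126 CPM in 2 mm tap against 6.49, 10.9 and 10.6 CPM in WT at high temperature, with 76.1, 103 and 75.4 CPM in 3 mm tap against 4.47, 7.49 and 6.35 CPM in WT. At low temperature they were 11.5, 9.29 and 9.90 CPM in 2 mm tap against 1.20, 0.913 and 0.977 CPM in WT, and 6.73, 9.13 and 6.61 CPM in 3 mm tap against 0.642, 0.748 and 1.18 CPM in WT. The lowest tap library was far above the highest WT library in each comparison. The log2 differences were 3.55 ± 0.24 and 3.80 ± 0.25 at high temperature, 3.30 ± 0.33 at 2 mm and low temperature (adjusted p = 4.9e-07) and 3.12 ± 0.35 at 3 mm and low temperature (adjusted p = 3.2e-06). The neighbouring LOC_Os12g33962 differed less, with log2 differences of 1.54 and 1.58 at high temperature and 1.69 ± 0.50 at 2 mm and low temperature (adjusted p = 0.022), and its value of 1.07 ± 0.50 at 3 mm and low temperature missed the threshold. The call at 2 mm and low temperature was lost without any 1 tap library or without WT replicate 1 or 2 (adjusted p = 0.053 to 0.11).

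From LOC_Os12g34010 to LOC_Os12g34022, 6 tested loci had positive differences in all 4 comparisons, and 5 of them were called in all 4. LOC_Os12g34010 had 17.1, 20.8 and 32.2 CPM in 2 mm tap against 2.20, 3.62 and 2.88 CPM in WT at high temperature, with 1.40, 1.56 and 1.73 CPM in tap against 0.415, 0.228 and 0.178 CPM in WT at low temperature. LOC_Os12g34012 had 13.3, 20.4 and 24.5 CPM in 2 mm tap against 1.58, 2.61 and 2.16 CPM in WT at high temperature, with 1.12, 0.686 and 0.654 CPM in tap against 0.138, 0 and 0.0444 CPM in WT at low temperature. At low temperature the differences were 2.49 ± 0.40 (adjusted p = 3.7e-05) for LOC_Os12g34010 and 3.63 ± 0.65 (adjusted p = 0.00019) for LOC_Os12g34012 at 2 mm. At 3 mm and low temperature the call of LOC_Os12g34010 was lost without WT replicate 1 (adjusted p = 0.053). LOC_Os12g34014 was the exception, since its log2 differences of 3.42 and 3.44 at high temperature were followed by 1.07 ± 0.68 and 1.88 ± 0.72 at low temperature, neither of which was called. LOC_Os12g34018 had 16.3, 23.8 and 37.5 CPM in 2 mm tap against 1.64, 1.61 and 2.06 CPM in WT at high temperature, with 2.57, 3.48 and 2.19 CPM in tap against 0.645, 0.548 and 0.311 CPM in WT at low temperature, where the log2 difference was 2.45 ± 0.44 (adjusted p = 0.00035).

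LOC_Os12g34016 and LOC_Os12g34022 were close to 0 counts in WT at low temperature. LOC_Os12g34016 held 22 counts in the 3 tap libraries and 1 in WT at 2 mm, for a level 22.5 times that of WT (3.64 to 929), and 16 against 0 at 3 mm, at least 5.30-fold higher. At high temperature it was at 2.41, 3.59 and 4.32 CPM in 2 mm tap against 0.256, 0 and 0.103 CPM in WT. LOC_Os12g34022 held 14 counts in 2 mm tap and 12 in 3 mm tap at low temperature, against 0 in WT at both lengths, at least 4.77-fold and 3.98-fold higher. Its high-temperature levels were 1.54, 2.37 and 2.45 CPM in 2 mm tap against 0.102, 0.0503 and 0.154 CPM in WT. Its 3 mm libraries at low temperature held 2, 10 and 0 counts in tap, so replicate 3 of tap overlapped the WT libraries. The low-temperature calls of LOC_Os12g34022 rested on few counts. They were lost without tap replicate 1 or any 1 WT library at 2 mm (adjusted p = 0.066 to 0.11), and without tap replicate 2, without any 1 WT library (adjusted p = 0.1 to 0.36) or with the replicate block (adjusted p = 0.062) at 3 mm. The call of LOC_Os12g34016 at 2 mm and low temperature was lost without tap replicate 1 (adjusted p = 0.056).

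LOC_Os12g34045 was higher in tap in all 4 comparisons, and no group of it was at 0 counts. Its levels were 12.9, 14.3 and 24.3 CPM in 2 mm tap against 1.94, 4.83 and 2.36 CPM in WT at high temperature, with 1.87, 1.28 and 2.15 CPM in 2 mm tap against 0.0921, 0.0913 and 0.0444 CPM in WT at low temperature. The log2 difference at low temperature was 4.44 ± 0.63 at 2 mm (adjusted p = 1.4e-05) and 4.40 ± 0.68 at 3 mm (adjusted p = 5.2e-05), while the high-temperature values were 2.49 and 2.84. The interaction of -1.95 ± 0.80 at 2 mm and -1.56 ± 0.88 at 3 mm was not called (adjusted p = 0.073 and 0.2). LOC_Os12g34054 had smaller differences, with 9.90 ± 3.77 CPM in 2 mm tap against 4.47 ± 1.74 CPM in WT at high temperature, with 0.788 ± 0.157 CPM in tap against 0.211 ± 0.0659 CPM in WT at low temperature. Its log2 differences at low temperature were 1.87 ± 0.53 (adjusted p = 0.015) at 2 mm and 1.70 ± 0.51 (adjusted p = 0.028) at 3 mm. These calls were lost without tap replicate 2 or WT replicate 1 at 2 mm (adjusted p = 0.065 and 0.074), and without tap replicate 1 or WT replicate 2 or 3 at 3 mm (adjusted p = 0.099 to 0.26). LOC_Os12g34056, which follows, was called at 2 mm and high temperature alone, where its tap libraries had 11.9, 23.7 and 87.4 CPM against 6.39, 11.4 and 17.5 CPM in WT and replicate 3 of tap stood far above the other libraries. Without that library the log2 difference of LOC_Os12g34056 was 0.62 and the call was lost, as it was without WT replicate 1 or 2 or in a separate fit of each temperature.

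LOC_Os12g34094 and LOC_Os12g34096 were called in all 4 comparisons. LOC_Os12g34094 had 21.9, 39.2 and 44.1 CPM in 2 mm tap against 4.81, 7.49 and 7.91 CPM in WT at high temperature, with 1.31, 1.14 and 1.17 CPM in tap against 0.415, 0.228 and 0.178 CPM in WT at low temperature, a log2 difference of 2.12 ± 0.50 there (adjusted p = 0.0045). LOC_Os12g34096 had 6.98, 10.2 and 11.3 CPM in 2 mm tap against 0.153, 0.201 and 0.360 CPM in WT at high temperature. At low temperature it had 0.281, 1.01 and 1.12 CPM in 2 mm tap against 0.184, 0.0913 and 0.267 CPM in WT, a log2 difference of 2.11 ± 0.51 (adjusted p = 0.0047), and the 3 mm libraries held 62 counts in tap and 0 in WT, at least 20.6-fold. LOC_Os12g34100 and LOC_Os12g34102 were called in both comparisons at high temperature, and LOC_Os12g34102 also at 2 mm and low temperature. LOC_Os12g34102 was among the lowest, with 8 counts over the 3 tap libraries and 0 over the 3 WT libraries at 2 mm and high temperature. The bound was 2.69-fold with the 8 counts taken as exact. Each call of LOC_Os12g34102 was lost on leaving out any 1 of at least 4 of its 6 libraries, tap and WT among them. LOC_Os12g34124, close to the end, was called in 3 of the 4 comparisons and had a log2 difference of -1.08 ± 0.79 at 3 mm and low temperature, which was not called. Its call at 2 mm and low temperature was lost without tap replicate 2 or 3 or WT replicate 1 or 3 (adjusted p = 0.058 to 0.1). The last locus, LOC_Os12g34128, had 8.19, 13.4 and 32.5 CPM in 2 mm tap against 2.66, 11.0 and 9.04 CPM in WT at high temperature, where these libraries overlapped. LOC_Os12g34120 fell below the filter.

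On/off loci were defined by counts, as at least 10 in every library of 1 genotype and at most 1 in every library of the other at both lengths. At high temperature 2 loci of the segment met this, LOC_Os12g34040 and LOC_Os12g34104, both on in tap, where 0.159% of the 26410 loci with values in all libraries met it. LOC_Os12g34040 had 24, 24 and 36 counts in 2 mm tap and 1, 1 and 0 in WT, and 25, 51 and 24 in 3 mm tap and 0, 0 and 0 in WT. LOC_Os12g34104 had 16, 38 and 46 counts in 2 mm tap and 0, 0 and 0 in WT, and 20, 21 and 21 in 3 mm tap and 0, 0 and 0 in WT. For LOC_Os12g34104 the level in tap was at least 33.6-fold higher at 2 mm and at least 20.9-fold higher at 3 mm. For LOC_Os12g34040 the ratio was 42.3 (11.4 to 355) at 2 mm and at least 33.7 at 3 mm. The 2 on/off loci became 1 when 0 counts were required in the off genotype, and 1 when at least 20 counts were required in the on genotype.

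At low temperature 0 loci of the segment were on/off at both lengths, where 0.0644% of all loci were. LOC_Os12g34040 then had 0, 4 and 0 counts in 2 mm tap and 0, 0 and 0 in WT, and 5, 4 and 5 in 3 mm tap and 0, 1 and 0 in WT. Neither difference was called, at adjusted p = 0.2 and 0.058. LOC_Os12g34104 had 1, 6 and 0 counts in 2 mm tap and 0, 0 and 1 in WT, and 4, 6 and 2 in 3 mm tap and 0, 0 and 0 in WT, and was called at 3 mm alone (adjusted p = 0.041). That call was lost without tap replicate 1 or 2 or any 1 WT library (adjusted p = 0.072 to 0.12). Both loci held at most 6 counts in any tap library at low temperature. LOC_Os12g34096 was on/off at 3 mm and low temperature alone, with 16, 20 and 26 counts in tap and 0, 0 and 0 in WT. LOC_Os12g31340, outside the stretch, missed the rule at both temperatures because WT libraries held up to 3 counts, with 3, 2 and 0 counts in 2 mm WT at high temperature and 0, 0 and 3 in 3 mm WT at low temperature.

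A single locus, LOC_Os12g34108, gave the largest share of the counts of the stretch in every group. Its levels were 274, 273 and 589.9 CPM in 2 mm tap against 45.3, 64.1 and 61.4 CPM in WT at high temperature, with 204, 331 and 217 CPM in 3 mm tap against 35.6, 73.6 and 64.0 CPM in WT. At low temperature they were 36.8, 39.5 and 33.3 CPM in 2 mm tap against 11.2, 9.91 and 11.0 CPM in WT, and 23.3, 30.9 and 27.6 CPM in 3 mm tap against 9.77, 10.5 and 14.3 CPM in WT. No library of tap overlapped WT, although replicate 3 of 2 mm tap at high temperature was at more than 2 times the level of the other 2. The log2 difference at low temperature was 1.77 ± 0.33 at 2 mm (adjusted p = 0.0013) and 1.24 ± 0.33 at 3 mm (adjusted p = 0.02). The call at 3 mm was lost without tap replicate 2 or 3 or WT replicate 1 or 2 (adjusted p = 0.055 to 0.089). It gave 45.4% and 43.6% of the summed counts of the stretch in 2 mm and 3 mm tap at high temperature and 35.1% and 49.5% in WT, and 53.1% and 50% in tap and 52.6% and 56.7% in WT at low temperature.

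Shares of other loci in the summed counts also differed between tap and WT. They are shares of all 25 loci, LOC_Os12g34108 included, from counts pooled over the 3 libraries of a group, so they carry no spread. LOC_Os12g33958 gave 13.1%, 14.8%, 14.8% and 13.8% of the summed counts in tap at 2 mm and 3 mm at high temperature and 2 mm and 3 mm at low temperature, against 5.74%, 5.23%, 5.05% and 4.22% in WT. LOC_Os12g33956, called at 3 mm and high temperature alone, gave 4.16%, 4.29%, 3.97% and 4.03% in tap, against 20.7%, 10.9%, 14.3% and 15.9% in WT. A share falls when other loci of the sum rise, and counts are not corrected for locus length, so these shares describe the makeup and not a level.

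**Figure D4:**
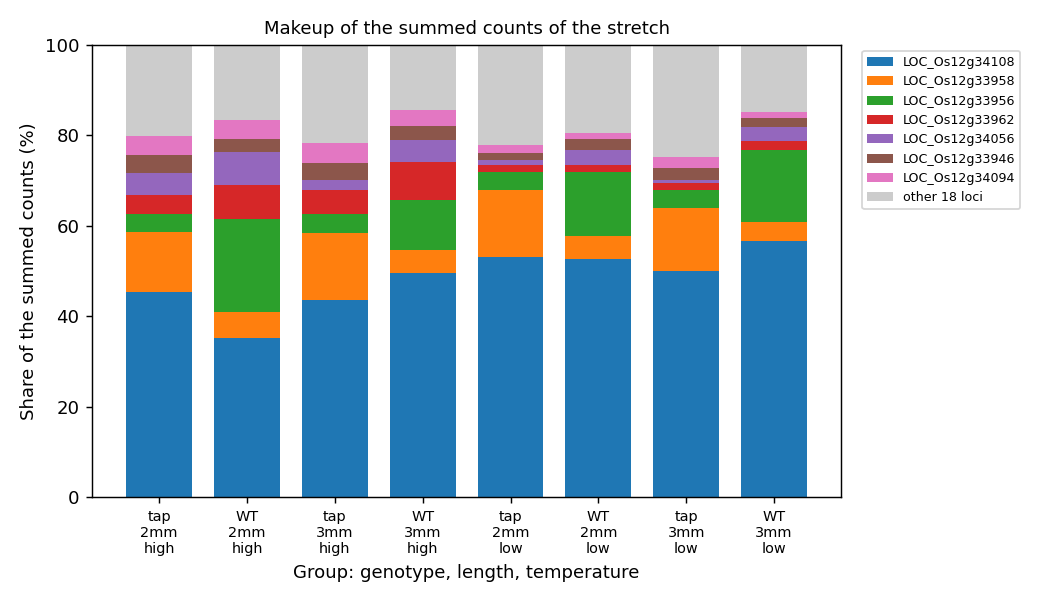
Share of the summed counts of the stretch (vertical axis, percent) given by its 7 most abundant loci and by the other 18 together, 1 bar per group. LOC_Os12g34108 takes 35.1% to 56.7% of the counts in every group, and the band of LOC_Os12g33956 is 3.97% to 4.29% in tap and 10.9% to 20.7% in WT.

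Most loci of the stretch were also higher at high than at low temperature, in both genotypes. Of the 25, 23 were called higher and 2 lower at high temperature in tap at each length. Of all tested loci, 32.5% were higher and 36.5% lower in tap at 2 mm, and 32.9% and 35.7% at 3 mm. In WT at 2 mm, 17 were called higher and 2 lower (29.8% and 34.1% of all loci), and 16 higher and 2 lower at 3 mm (30.8% and 35%). The 2 that were lower were LOC_Os12g33928 and LOC_Os12g34102 in each case, and 15 loci were called higher in both genotypes at both lengths, against 18.6% of all tested loci. Over the whole segment, 108 and 104 loci were called between temperatures in tap at 2 mm and 3 mm (69% and 68.6% of all loci), and 99 and 93 in WT (63.8% and 65.8%). The median log2 difference between high and low temperature over the stretch was 3.67 and 3.20 in tap at 2 mm and 3 mm, and 3.20 and 2.82 in WT. The summed level was 12.1 and 10.5 times higher at high temperature in tap at 2 mm and 3 mm, and 7.98 and 5.75 times higher in WT.

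Loci that were both higher in tap in all 4 comparisons and higher at high temperature in all 4 groups numbered 80 in the whole table, which is 0.338%, and 10 of them lay in the stretch. With at least 2-fold differences in each of those comparisons, 26 loci of the table remained, and 10 of them were loci of the stretch. They were LOC_Os12g33944, LOC_Os12g33958, LOC_Os12g34010, LOC_Os12g34012, LOC_Os12g34018, LOC_Os12g34022, LOC_Os12g34045, LOC_Os12g34054, LOC_Os12g34094 and LOC_Os12g34108. The comparisons share libraries, and the high-temperature ones chose the window, so these counts are a description.

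Whether the difference between tap and WT depended on temperature was tested by the interaction, the log2 difference at high temperature minus that at low temperature. The high-temperature side of this contrast chose the window, so it is not independent of that choice. Across the segment 36 loci were called at 2 mm and 42 at 3 mm, where 26.8% and 26.4% of all loci were called. By direction, 25 were positive and 11 negative at 2 mm, against 13.2% and 13.6% of all loci, and 24 were positive and 18 negative at 3 mm, against 14.3% and 12% of all loci. In the stretch 2 loci were called at each length, all with a larger difference at high temperature. They were LOC_Os12g33928 and LOC_Os12g34096 at 2 mm and LOC_Os12g33928 and LOC_Os12g34124 at 3 mm. For LOC_Os12g33958 the interaction was 0.24 ± 0.45 at 2 mm and 0.68 ± 0.48 at 3 mm, and for LOC_Os12g34108 it was 0.96 ± 0.44 and 0.87 ± 0.44, none of them called.

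Outside the stretch, 5 loci were called in the same direction in all 4 comparisons, and no 2 of them were next to each other. LOC_Os12g30040, the first by number, had 102, 109 and 108 CPM in 2 mm tap against 58.0, 64.2 and 62.7 CPM in WT at high temperature, with 87.6, 79.9 and 77.7 CPM in tap against 51.0, 48.9 and 52.2 CPM in WT at low temperature. The log2 differences were 0.79 ± 0.09 and 1.19 ± 0.09 at high temperature, and 0.69 ± 0.09 (adjusted p = 7.9e-07) and 0.54 ± 0.09 (adjusted p = 4.7e-05) at low temperature. Its neighbours behaved otherwise: LOC_Os12g30030 was at 9.78 ± 1.20 CPM in 2 mm tap against 10.3 ± 2.23 CPM in WT at high temperature and was called in none of the 4 comparisons, and LOC_Os12g30060 was called at 2 mm and high temperature alone. LOC_Os12g30520 had 80.0, 67.7 and 70.0 CPM in 2 mm tap against 39.7, 39.4 and 34.5 CPM in WT at high temperature, with 30.8, 27.6 and 25.4 CPM in tap against 22.9, 21.9 and 16.9 CPM in WT at low temperature, where its log2 difference was 0.44 ± 0.11 (adjusted p = 0.0062). The call of LOC_Os12g30520 was lost without tap replicate 1 or WT replicate 3 at 2 mm and low temperature (adjusted p = 0.056 and 0.075), and without tap replicate 2 or 3 at 3 mm (adjusted p = 0.053 and 0.06). Both loci were higher in every tap library than in every WT library of the same length and temperature.

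LOC_Os12g31340 showed the largest difference among the loci outside the stretch that were called in all 4 comparisons. It had 12.4, 10.1 and 12.5 CPM in 2 mm tap against 0.153, 0.101 and 0 CPM in WT at high temperature, with 12.2, 13.0 and 11.6 CPM in 3 mm tap against 0.0508, 0.104 and 0.0516 CPM in WT. At low temperature it had 1.59, 0.641 and 1.35 CPM in 2 mm tap against 0.138, 0.0913 and 0 CPM in WT, and 0.968, 1.15 and 0.985 CPM in 3 mm tap against 0, 0 and 0.142 CPM in WT. WT was near 0 in every group, while tap was higher at high than at low temperature by 3.28 ± 0.29 log2 units at 2 mm. The log2 difference was 7.01 ± 0.43 and 7.36 ± 0.45 at high temperature and 3.87 ± 0.55 (adjusted p = 6.3e-06) at 2 mm and low temperature. At 3 mm and low temperature the 3 libraries held 67 counts in tap and 3 in WT, a ratio of 22.2 (7.28 to 110.4). The next tested loci, LOC_Os12g31350 and LOC_Os12g31370, were named after their values were seen. Like LOC_Os12g31340, each had every tap library above every WT library in all 4 comparisons. LOC_Os12g31350 was called at high temperature alone, at 0.43 ± 0.09 and 0.53 ± 0.09 log2 units. LOC_Os12g31370 had 16.6, 11.9 and 13.8 CPM in 2 mm tap against 5.27, 4.22 and 5.04 CPM in WT at high temperature, with 12.6, 10.9 and 10.9 CPM in tap against 7.23, 9.77 and 6.66 CPM in WT at low temperature, where the difference was 0.54 ± 0.14 (adjusted p = 0.0083). It was called in 3 of the 4 comparisons, the exception being 3 mm and low temperature at 0.37 ± 0.14. Its call at 2 mm and low temperature was lost without tap replicate 1 or WT replicate 3 (adjusted p = 0.057 and 0.071).

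LOC_Os12g31800 was the 1 locus of the segment called in opposite directions at the 2 temperatures at both lengths, as were 0.921% of all tested loci. It had 374, 325 and 348 CPM in 2 mm tap against 167, 133 and 173 CPM in WT at high temperature, with 359, 349.5 and 359 CPM in 3 mm tap against 194, 195 and 185 CPM in WT. At low temperature it had 149, 144 and 143 CPM in 2 mm tap against 226, 215 and 209 CPM in WT, and 144, 141 and 142 CPM in 3 mm tap against 228, 212 and 217 CPM in WT. Tap was thus above WT at high and below WT at low temperature, with no overlap of libraries in any of the 4 comparisons. The differences were 1.15 ± 0.09 and 0.90 ± 0.09 at high temperature, and -0.58 ± 0.09 (adjusted p = 1.3e-05) and -0.62 ± 0.09 (adjusted p = 5.1e-06) at low temperature.

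LOC_Os12g33160 was the 1 locus called lower in tap in all 4 comparisons. It had 84.6, 63.1 and 84.7 CPM in 2 mm tap against 104, 88.6 and 88.6 CPM in WT at high temperature, with 28.1, 27.8 and 29.3 CPM in tap against 38.4, 40.7 and 39.4 CPM in WT at low temperature, where the log2 difference was -0.48 ± 0.10 (adjusted p = 0.0011). At 3 mm and low temperature the difference was -0.40 ± 0.10 (adjusted p = 0.0072), and the call was lost without WT replicate 1 (adjusted p = 0.056). Its call at 2 mm and high temperature was lost without tap replicate 2, without WT replicate 1 and in a separate fit of each temperature, so its place among the loci called in all 4 comparisons depended on these settings. LOC_Os12g34980, the last locus by number called in all 4, had 62.6, 49.6 and 59.7 CPM in 2 mm tap against 33.0, 33.0 and 33.6 CPM in WT at high temperature, with 33.2, 32.2 and 31.5 CPM in tap against 26.8, 25.0 and 24.2 CPM in WT at low temperature. Its log2 difference at low temperature was 0.35 ± 0.09 (adjusted p = 0.0075) at 2 mm and 0.31 ± 0.09 (adjusted p = 0.024) at 3 mm. The call at 3 mm was lost without tap replicate 1 or 2 or WT replicate 1 or 2 (adjusted p = 0.062 to 0.096). Of the loci beside it, LOC_Os12g34920 was called at 2 mm and high temperature alone, and LOC_Os12g34990 was lower in tap where it was called, at 3 mm and high temperature and at 2 mm and low temperature. The call of LOC_Os12g34920 was lost without tap replicate 1 or 3, without WT replicate 2 or 3 and in a separate fit, and that of LOC_Os12g34990 at low temperature without any 1 of the 6 libraries (adjusted p = 0.065 to 0.099).

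**Figure D5:**
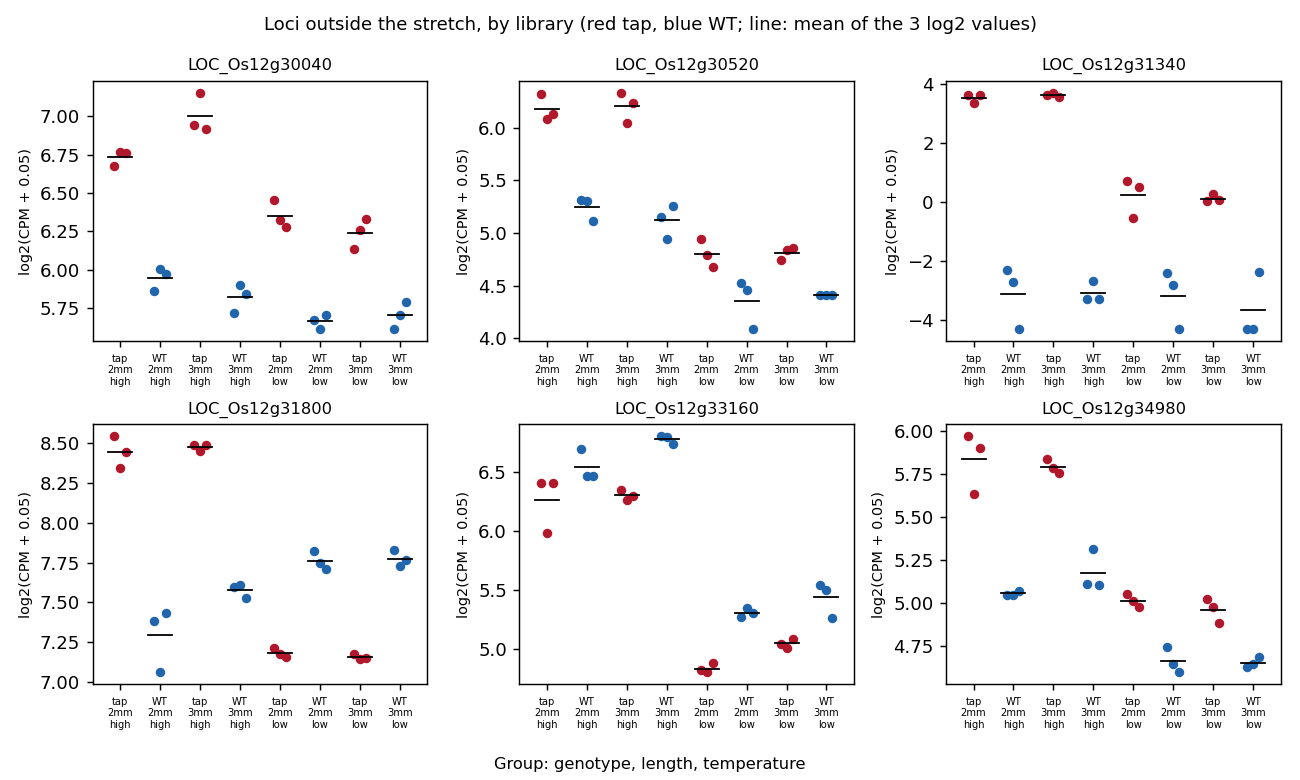
Level as log2(CPM + 0.05) in each library (vertical axis) by group (horizontal axis) for 6 loci outside the stretch; red points are tap, blue points WT, and lines the means of the 3 log2 values. LOC_Os12g30040, LOC_Os12g30520, LOC_Os12g31340 and LOC_Os12g34980 are higher in tap and LOC_Os12g33160 lower in tap in each pair of groups, while LOC_Os12g31800 changes direction with temperature.

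At least 4-fold differences in the same direction at both lengths, the measure that chose the window, were fitted and called at high temperature for 22 loci of the segment, 21 higher and 1 lower in tap, against 2.18% of all tested loci, 1.53% higher and 0.642% lower. The 2 nearest to the limit from above were LOC_Os12g34094, at 2.38 and 2.68 log2 units at 2 mm and 3 mm, and LOC_Os12g34108, at 2.73 and 2.12. The 2 nearest from below were LOC_Os12g32290, at 1.78 and 1.72, and LOC_Os12g32970, at 1.70 and 2.14. Both had few counts, at most 5 in any WT library at high temperature, and neither was called at 2 mm (adjusted p = 0.077 and 0.1). Their calls at 3 mm (adjusted p = 0.047 and 0.043) were lost in 8 and 4 of 10 alternatives. The 1 that was lower in tap was LOC_Os12g32750, chosen here after its values were seen. It had 0.0963, 0.0527 and 0.107 CPM in 2 mm tap against 0.665, 0.553 and 0.360 CPM in WT at high temperature, with 0.514, 0.915 and 0.981 CPM in tap against 2.53, 2.01 and 2.04 CPM in WT at low temperature, a log2 difference of -1.44 ± 0.36 there (adjusted p = 0.0056). At 3 mm and low temperature its difference was -0.89 ± 0.32 and was not called. At low temperature 13 loci of the segment were fitted as at least 4-fold higher in tap at both lengths, 11 of them in the stretch, and the other 2 were LOC_Os12g31340 and LOC_Os12g33270. LOC_Os12g33270, named after its values were seen, held 19, 23 and 11 counts in 2 mm tap and 0, 4 and 6 in WT at low temperature, and was not called at 3 mm. Its call at 2 mm was lost with DESeq2 (adjusted p = 0.051) and without tap replicate 2 or WT replicate 1 (adjusted p = 0.067 and 0.079).

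Between the lengths, loci of the segment were called about as often as loci of the whole table. In total 12 loci (8.11%) were called between 3 mm and 2 mm inflorescences in at least 1 of the 4 combinations of genotype and temperature, against 8.75% of all tested loci. All 12 were called at high temperature, 2 in tap (2.21% of all loci) and 10 in WT (6.37%). The count of 12 was 1 without WT replicate 2 of 2 mm at high temperature, and 22 without tap replicate 2 of 3 mm at high temperature. The 4 loci of the stretch among them were called in WT at high temperature, all lower at 3 mm, as were 3.72% of all tested loci. They were LOC_Os12g33928, with a WT group at 0 counts at 3 mm, LOC_Os12g33956 at -1.40 ± 0.35, LOC_Os12g34012 at -1.24 ± 0.35 and LOC_Os12g34054 at -1.19 ± 0.31 log2 units, 3 mm minus 2 mm.

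The window and the stretch were set by identifier numbers, but the last digit of a number was not used to choose them. Of the 26 identifiers in the stretch, 22 did not end in 0, which is 84.6%, against 11.7% before the stretch, 16.1% after it and 7.66% in the whole table. The 19 loci of the segment below the filter had at most 126 counts summed over the 24 libraries and at most 17 in a single library. LOC_Os12g33289, the 1 without values at high temperature, had 334 to 461 counts in the low-temperature libraries.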

How the data were processed

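RNA-seq read counts per locus were measured in 24 libraries of rice inflorescences. Values are counts as the authors deposited them in 1 table. The labels' protocols name an RNeasy kit for the extraction and a SMARTER mRNA-Seq kit for the libraries, and the submitters' processing notes name Trimmomatic, HISAT2, HTSeq and the IRGSP-1.0 build. The sources used here give no tool versions and no strand setting. Sample titles carry the name ild where the genotype field gives tap, and the columns of the high-temperature tap libraries were matched by name to these samples by inference.

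Of 26480 loci, 70 had no high-temperature value. The other 26410 were filtered with filterByExpr by group, which left 23658, scaled by TMM and fitted with edgeR 4.0.16 (limma 3.58.1, R 4.3.3) as 8 group means with 16 residual degrees of freedom. All adjusted p-values are from edgeR's quasi-likelihood F test with Benjamini-Hochberg adjustment over all tested loci, and the standard error is the log2 difference divided by the square root of F. Scaling factors were 0.905 to 0.978 at high and 1.033 to 1.075 at low temperature. No pair of replicates had identical values, and the smallest chi-square per degree of freedom between replicates was 3.39. The fit was tested on simulated data.

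The window and lists were chosen with earlier results of these data known. Loci named are the on/off loci, those called in all 4 comparisons of tap with WT (the 12 with the largest differences in full), the first and last of these with their neighbours, loci called in opposite directions at the 2 temperatures, and the 2 nearest loci on each side of the 4-fold limit. Other loci named were chosen after their values were seen, among them those of the stretch that were not called in all 4 comparisons. Ratios of summed counts carry exact 95% intervals. For a bound, a group at 0 was set to 3 counts and the counts of the other group were taken as exact. Alternatives were other scaling (RLE), no filter, DESeq2 1.42.0, a replicate term, separate fits by temperature, a 2-fold minimum and leaving out each library.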

Additional observations from a re-analysis of the deposited data

Results flagged for a closer look

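The loci named here had a difference between tap and WT that itself differed between high and low temperature, by the interaction in edgeR's quasi-likelihood test with adjustment over all tested loci. The high-temperature libraries in this contrast also chose the window. Across the segment 36 and 42 loci were called at 2 mm and 3 mm, against 26.8% and 26.4% of all tested loci, with 25 positive and 11 negative at 2 mm and 24 and 18 at 3 mm.

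In the stretch, the interaction at LOC_Os12g33928 was 1.68 ± 0.63 log2 units at 2 mm (adjusted p = 0.047) and 5.94 ± 1.20 at 3 mm (adjusted p = 0.00054), where the 3 mm value rests on a WT group with 0 counts and its size is set by the fit. At LOC_Os12g34096 it was 3.17 ± 0.78 at 2 mm (adjusted p = 0.0034), and at 3 mm it was -1.75 ± 1.27 (adjusted p = 0.33), with a WT group at 0 counts at low temperature.

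Outside the stretch, LOC_Os12g31800 had the interaction with the smallest adjusted p among the named loci, at 1.72 ± 0.12 at 2 mm (adjusted p = 9.8e-12) and 1.52 ± 0.12 at 3 mm (adjusted p = 1.9e-10), with tap above WT at high and below WT at low temperature. LOC_Os12g31340 had 3.13 ± 1.12 at 2 mm (adjusted p = 0.037) and 3.06 ± 1.39 at 3 mm (adjusted p = 0.1), with at most 3 counts in any WT library. LOC_Os12g32970, with at most 13 counts in any high-temperature library, had 3.04 ± 0.96 at 3 mm (adjusted p = 0.019) and 1.67 ± 0.99 at 2 mm (adjusted p = 0.22).

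Smaller interactions were found at loci with higher counts. LOC_Os12g30520 had 0.50 ± 0.16 at 2 mm (adjusted p = 0.017) and 0.68 ± 0.16 at 3 mm (adjusted p = 0.0016). LOC_Os12g30040 had 0.65 ± 0.12 at 3 mm (adjusted p = 2e-04), against 0.10 ± 0.12 at 2 mm (adjusted p = 0.58). LOC_Os12g30060 had 0.56 ± 0.16 at 2 mm (adjusted p = 0.011) and 0.20 ± 0.16 at 3 mm (adjusted p = 0.39). LOC_Os12g34980 had 0.44 ± 0.13 at 2 mm (adjusted p = 0.011) and 0.31 ± 0.13 at 3 mm (adjusted p = 0.075). Each of these 12 called interactions was positive, with a larger log2 difference, tap minus WT, at high than at low temperature. The rule named mainly loci called higher in tap, so their shared sign is not a result about the segment. Called interactions of the segment went both ways, with 11 negative at 2 mm and 18 at 3 mm. LOC_Os12g34124, called at 3 mm, lay outside the rule and is not among the 12.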

How the results depend on the processing

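For 43 loci named in the text or lying in the stretch, 117 of the 172 differences between tap and WT were called. None of the 117 changed sign under RLE scaling, no filter, DESeq2, the replicate block, separate fits or leaving out each library, while 14 uncalled ones did in at least 1 of these. Of the 117 calls, 30 were lost in at least 1 alternative, 21 of them at low temperature, and all 30 were lost on leaving out some library. The alternatives for loci outside the rule for named loci were added after the data were seen. With RLE scaling, without the filter and with DESeq2, each count of called loci stayed within 1.5 times its value. A separate fit of each temperature gave 40 called loci at 3 mm and low temperature against 24, and 3 loci called between lengths against 12. Requiring also a 2-fold difference left 31 and 34 called loci at 2 mm and 3 mm at high temperature, and 24 at 2 mm and low temperature. It left 11 and 16 interactions, 63 and 61 loci between temperatures in tap, 46 and 50 in WT, and 4 between lengths. No share of all tested loci was taken under any alternative. The counts therefore show how calls in the segment moved and not whether they exceed the whole table. On/off loci at high temperature numbered 1 with 0 counts required in the off genotype and 1 with at least 20 counts required in the on genotype. In place of the 18 loci called in all 4 comparisons, the windows of equal width before and after the segment held 2 and 11.

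Leaving out each library in turn gave 59 to 83 and 65 to 72 called loci at 2 mm and 3 mm at high temperature, and 27 to 32 and 15 to 23 at low temperature. Interactions ranged over 29 to 41 and 33 to 44, and calls between temperatures over 100 to 108 and 95 to 103 in tap and 85 to 93 and 83 to 91 in WT. Loci called in all 4 comparisons ranged from 12 to 20, and in the stretch from 9 to 13, each lowest without WT replicate 1 of 3 mm at low temperature. Loci called between lengths ranged from 1 to 22, and on/off loci stayed at 2 at high and 0 at low temperature.

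The replicate block gave 75, 70, 40 and 26 called loci in the 4 comparisons of tap with WT, 37 and 41 interactions, 17 loci called in all 4 comparisons, 12 of them in the stretch, and 16 between lengths. Same-numbered libraries did not pair: correlations of their deviations from group means were -0.0617 to 0.132. The cause of these shifts was not tested. At low temperature many loci of the stretch had fewer than 10 counts in WT libraries, so depth limits what could be called there.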
